A study of Mus musculus with 18 samples.

Results

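The prostaglandin-synthesizing enzyme Ptgs2 and a group of genes for secreted inflammatory proteins were followed across knockdown and heat shock in mouse embryonic fibroblasts (MEFs). The set named 10 genes: Ptgs2, the cytokines Il6, Lif and Il11, the chemokines Cxcl1, Cxcl5, Ccl2 and Ccl7, the growth factor Csf1, and Il1rl1, the receptor of interleukin-33. They were chosen by a rule that used measured values, namely the raised Ptgs2 signal of unstressed SSBP1-knockdown cells, so differences of the set's own genes that use those arrays are given below as a description without a test. Genes outside the set were tested on them. The SCR Cont arrays were the other side of that contrast, so Ptgs2 differences that use them are not independent of the choice. A probe set annotated to exactly 1 symbol was found for 9 of the 10 genes, among 19938 symbols in all; Il1rl1 had none and was not analysed here. Each of the 9 genes was read by 1 probe set, and 8 of them lay above the median of the mean signals, 7.90 on the log2 scale. Il11 lay below it.

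The arrays came from immortalized MEFs of ICR background, held as 1 cell line. All cells, controls included, were exposed to an adenovirus for 2 h and then kept in normal medium for 70 h. The virus carried a short hairpin RNA (shRNA) against mouse SSBP1 (SSBP1-KD), one against mouse HSF1 (HSF1-KD) or a scrambled sequence (SCR). Cells were then placed at 42 °C for 1 h as a heat shock (HS) or left at 37 °C (Cont), giving the 6 groups SSBP1-KD HS, SSBP1-KD Cont, HSF1-KD HS, HSF1-KD Cont, SCR HS and SCR Cont with 3 arrays each. SSBP1 is the mitochondrial single-strand DNA-binding protein, and HSF1 is the transcription factor that drives heat shock genes. With 1 shRNA construct for each target, an effect of the knockdown and an effect of the construct cannot be told apart.

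Ptgs2 encodes cyclooxygenase-2, the inducible enzyme that converts arachidonic acid to prostaglandin H2, the precursor of the prostaglandins. Fibroblasts exposed to cytokines, growth factors or stress raise it together with cytokine and chemokine genes, many of which carry promoter elements for NF-kB, AP-1 and C/EBP factors and mRNAs that decay quickly. Il6, Lif and Il11 signal through receptors that contain gp130 and activate STAT3. Cxcl1 and Cxcl5 attract neutrophils, Ccl2 and Ccl7 attract monocytes, and Csf1 supports macrophages.

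Array medians lay between 7.88 and 7.94, and arrays of a group correlated at 0.98 or more. The SSBP1-KD Cont array of replicate 1 stood apart from its group, with the highest mean absolute deviation of the 18 arrays (0.15). Of the 2 probe sets for Ssbp1, the brighter was lower in SSBP1-KD HS than in SCR HS cells (log2 difference -0.41 ± 0.08 SE, adjusted p = 0.00155), and the same difference in Cont cells was -0.22 ± 0.08 (adjusted p = 0.0555). The other differed by -0.03 (adjusted p = 0.826) and -0.07 (adjusted p = 0.513). Hsf1 had no probe set with 1 symbol and was not analysed here. Of 12 fibroblast markers 10 lay above the median signal, against 2 of 12 macrophage and leukocyte markers, 1 of 6 endothelial markers and 2 of 6 epithelial markers. The p-values below measure the spread between arrays, since nothing in the labels says whether the arrays of a group came from separate cultures.

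RefSeq promoter windows (build GRCm38.p6) were matched for 7 of the 10 genes and not for Ccl2, Ccl7 or Cxcl5. The 250 bases upstream of the annotated start are shown for Ptgs2 and Il6, the genes that were higher with HSF1 knockdown by the widest margin, and for Cxcl1, which was lower in heat-shocked SSBP1-KD cells. Capitals mark every match, on either strand, to the TATA box TATAAA, the AP-1 site TGANTCA, the cyclic AMP response element TGACGTCA, the C/EBP site TTNNGNAA, the heat shock element GAANNTTC or TTCNNGAA, or the NF-kB consensus.
Ptgs2 (chr1:150099781-150100030, plus strand): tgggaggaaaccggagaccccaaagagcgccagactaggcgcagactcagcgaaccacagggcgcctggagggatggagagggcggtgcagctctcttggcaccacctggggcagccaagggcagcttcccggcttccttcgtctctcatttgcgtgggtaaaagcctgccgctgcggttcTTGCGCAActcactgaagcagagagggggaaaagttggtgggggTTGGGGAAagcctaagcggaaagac
Il6 (chr5:30012864-30013113, plus strand): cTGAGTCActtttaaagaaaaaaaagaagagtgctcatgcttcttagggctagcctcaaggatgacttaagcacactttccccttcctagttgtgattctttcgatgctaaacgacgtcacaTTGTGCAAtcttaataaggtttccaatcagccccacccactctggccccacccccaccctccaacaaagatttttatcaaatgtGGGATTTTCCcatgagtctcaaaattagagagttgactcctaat
Cxcl1 (chr5:90890995-90891244, plus strand): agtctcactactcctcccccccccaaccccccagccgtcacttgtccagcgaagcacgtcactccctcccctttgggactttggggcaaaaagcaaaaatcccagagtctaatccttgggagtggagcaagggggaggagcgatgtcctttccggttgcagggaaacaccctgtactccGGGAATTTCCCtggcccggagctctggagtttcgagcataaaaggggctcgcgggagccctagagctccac

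The Ptgs2 window held 2 C/EBP matches, at positions -69 to -62 and -25 to -18 relative to the start. The Il6 window held an AP-1 match at -249 to -243, a C/EBP match at -128 to -121 and an NF-kB match at -44 to -35. The Cxcl1 window held 2 overlapping NF-kB matches, at -71 to -62 and -70 to -61. Among the windows not shown, Csf1 had 1 NF-kB match, Lif had 1 NF-kB and 1 AP-1 match, 1 of the 2 Il11 windows had an AP-1 match, and both Il1rl1 windows had a C/EBP match. Of 32851 windows of this length, 36.8% held a C/EBP match, 7.25% an NF-kB match, 6.75% an AP-1 match, 12.4% a TATA box, 1.55% the cyclic AMP response element, 6.69% the first form of the heat shock element and 7.17% the second. A match describes the letters and was not taken as a bound site.

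**Figure D1:**
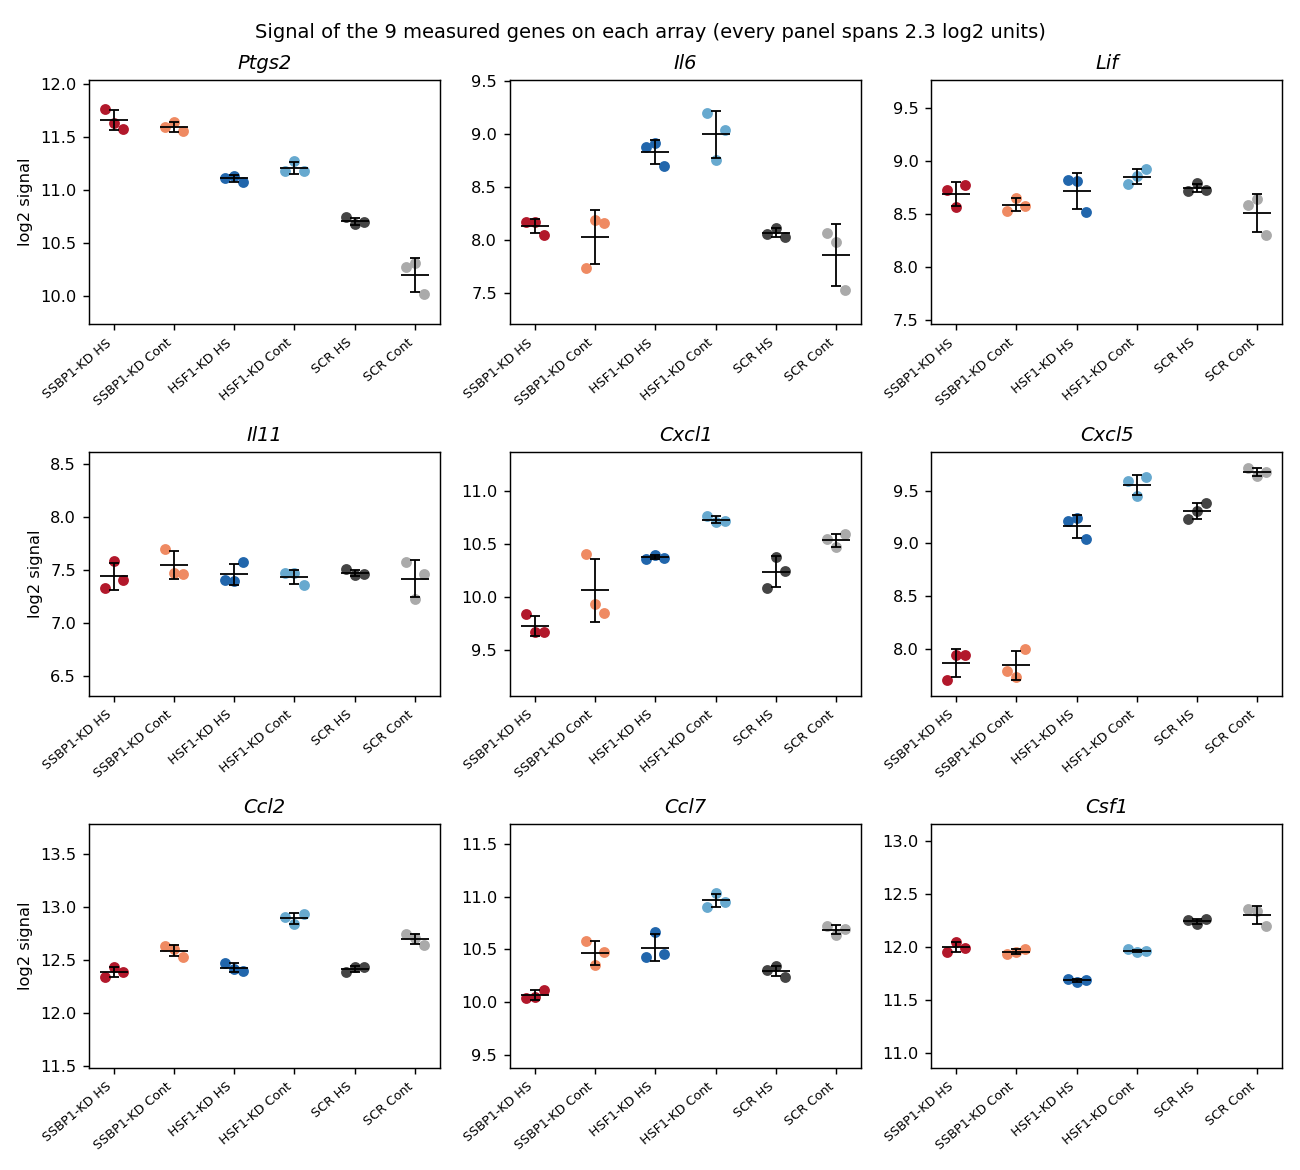
Log2 signal of the 9 measured genes on each of the 18 arrays, by group. Points are arrays, and bars give the mean and SD of 3 arrays. Ptgs2 is highest in SSBP1-KD cells and lowest in SCR Cont cells, Il6 is highest in HSF1-KD cells, and Cxcl5 is lowest in SSBP1-KD cells.

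Ptgs2 (probe set 10350516, chromosome 1) was the gene whose signal defined the set. Its log2 signals were 11.76, 11.64 and 11.58 in SSBP1-KD HS cells, 11.59, 11.64 and 11.56 in SSBP1-KD Cont cells, 11.12, 11.14 and 11.08 in HSF1-KD HS cells, 11.18, 11.28 and 11.18 in HSF1-KD Cont cells, 10.74, 10.68 and 10.70 in SCR HS cells, and 10.27, 10.31 and 10.02 in SCR Cont cells. The order of the group means was SSBP1-KD HS, SSBP1-KD Cont, HSF1-KD Cont, HSF1-KD HS, SCR HS and SCR Cont, and only the 2 SSBP1-KD groups overlapped with their neighbour in that order. The contrast that chose the gene, SSBP1-KD Cont against SCR Cont, gave a difference of 1.39 ± 0.07 (SE), which is 2.63-fold. It was 1.30 without SCR Cont replicate 3, the lowest array.

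In heat-shocked cells, whose arrays the rule did not use, Ptgs2 was also higher in knockdown cells. It rose by 0.95 ± 0.07 in SSBP1-KD HS over SCR HS cells (1.94-fold, adjusted p = 3.99e-07, limma with Benjamini-Hochberg adjustment over all 35557 probe sets, as for every adjusted p here). HSF1-KD HS cells exceeded SCR HS cells by 0.40 ± 0.07 (1.32-fold, adjusted p = 0.000689). The SSBP1-KD HS signal also exceeded the HSF1-KD HS signal, by 0.55 ± 0.07 (1.46-fold, adjusted p = 3.82e-05). No array of the higher group fell within the range of the lower group in any of these.

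The next 3 Ptgs2 differences share the SCR Cont arrays with the contrast that chose the gene, so their p-values are not independent of that choice. HSF1-KD Cont cells exceeded SCR Cont cells by 1.01 ± 0.07 (2.01-fold, adjusted p = 4.24e-07), and by 0.92 without SCR Cont replicate 3. SCR HS cells exceeded SCR Cont cells by 0.51 ± 0.07 (1.42-fold, adjusted p = 0.000139), and by 0.41 without that replicate. The heat response of HSF1-KD cells was smaller than that of SCR cells by a log2 difference of -0.61 ± 0.10 (95% confidence interval -0.81 to -0.40, adjusted p = 0.00876), and by -0.51 without it.

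Within HSF1-KD cells, whose arrays the rule did not use, the difference between HS and Cont was -0.10 ± 0.07 (adjusted p = 0.354). In SSBP1-KD cells HS and Cont differed by 0.06 ± 0.07, given without a test. By the methods' t-test with Benjamini-Hochberg adjustment, the heat difference in SCR cells had an adjusted p of 0.0559 and the difference in heat response one of 0.102.

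Il6 (probe set 10520452, chromosome 5), a cytokine of the gp130 family that drives the acute-phase response, was highest in HSF1-KD cells. Its log2 signals were 8.17, 8.17 and 8.05 in SSBP1-KD HS cells, 7.73, 8.19 and 8.16 in SSBP1-KD Cont cells, 8.88, 8.92 and 8.70 in HSF1-KD HS cells, 9.19, 8.76 and 9.04 in HSF1-KD Cont cells, 8.06, 8.11 and 8.03 in SCR HS cells, and 8.07, 7.98 and 7.53 in SCR Cont cells. All 6 HSF1-KD arrays lay above all other arrays, and the other groups overlapped with their neighbours in the order of means. HSF1-KD cells exceeded SCR cells by 1.14 ± 0.15 in Cont (2.20-fold, adjusted p = 8.79e-05) and by 0.76 ± 0.15 in HS (1.70-fold, adjusted p = 0.00171). The Cont difference had an adjusted p of 0.0635 by the methods' t-test and was 0.97 without SCR Cont replicate 3.

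Il6 was not called higher or lower in SSBP1-KD HS against SCR HS cells. The difference between SSBP1-KD HS and SCR HS cells was 0.06, with a 95% confidence interval of -0.25 to 0.37 (adjusted p = 0.835), while SSBP1-KD HS cells lay below HSF1-KD HS cells (1.62-fold lower, log2 difference -0.70 ± 0.15, adjusted p = 0.00272). In Cont cells the untested difference between SSBP1-KD and SCR was 0.17 ± 0.15, and 0.00 without SCR Cont replicate 3. HS and Cont differed by 0.21 in SCR cells (adjusted p = 0.427, and 0.04 without SCR Cont replicate 3) and by -0.17 in HSF1-KD cells (adjusted p = 0.489), neither past the threshold.

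Lif (probe set 10373918, chromosome 11), a gp130 cytokine that maintains mouse embryonic stem cells, varied within a narrow range. Its log2 signals were 8.73, 8.57 and 8.78 in SSBP1-KD HS cells, 8.53, 8.66 and 8.58 in SSBP1-KD Cont cells, 8.82, 8.81 and 8.52 in HSF1-KD HS cells, 8.78, 8.86 and 8.93 in HSF1-KD Cont cells, 8.72, 8.79 and 8.73 in SCR HS cells, and 8.59, 8.64 and 8.31 in SCR Cont cells. Neighbouring groups in the order of means overlapped throughout. Lif rose by 0.34 ± 0.09 in HSF1-KD Cont over SCR Cont cells (1.27-fold, adjusted p = 0.0189), the only call among the 7 tested comparisons. The call was lost without HSF1-KD Cont replicate 2 (0.34, adjusted p = 0.0554), HSF1-KD Cont replicate 3 (0.31, adjusted p = 0.0726) or SCR Cont replicate 3 (0.24, adjusted p = 0.0988), in the fit of the compared arrays alone (adjusted p = 0.0757) and by the methods' t-test (adjusted p = 0.167).

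Il11 (probe set 10559667, chromosome 7), a gp130 cytokine made by activated fibroblasts, passed the threshold in none of the 7 tested comparisons. Its signals ran between 7.33 and 7.58 in SSBP1-KD HS, 7.46 and 7.70 in SSBP1-KD Cont, 7.40 and 7.57 in HSF1-KD HS, 7.35 and 7.47 in HSF1-KD Cont, 7.45 and 7.50 in SCR HS, and 7.23 and 7.57 in SCR Cont cells. The 95% confidence interval of the difference between SSBP1-KD HS and SCR HS cells was -0.22 to 0.17 (adjusted p = 0.880).

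Cxcl5 (probe set 10523120, chromosome 5), a neutrophil-attracting chemokine, had the lowest signals in SSBP1-KD cells. They were 7.71, 7.94 and 7.95 in SSBP1-KD HS cells, 7.80, 7.74 and 8.0 in SSBP1-KD Cont cells, 9.21, 9.24 and 9.04 in HSF1-KD HS cells, 9.59, 9.45 and 9.62 in HSF1-KD Cont cells, 9.23, 9.31 and 9.38 in SCR HS cells, and 9.71, 9.63 and 9.68 in SCR Cont cells. All 6 SSBP1-KD arrays lay below the other 12, and the untested difference in Cont was -1.82 ± 0.08, a 3.54-fold lower signal. In heat-shocked cells, whose arrays the rule did not use, Cxcl5 was 2.71-fold lower in SSBP1-KD than in SCR cells (log2 difference -1.44 ± 0.08, adjusted p = 9.19e-08). It was 2.45-fold lower in SSBP1-KD HS than in HSF1-KD HS cells (-1.29 ± 0.08, adjusted p = 8.68e-08).

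Between HSF1-KD and SCR cells Cxcl5 differed by -0.12 ± 0.08 in Cont (adjusted p = 0.377) and by -0.14 ± 0.08 in HS (adjusted p = 0.306), neither past the threshold. Heat shock lowered Cxcl5 in HSF1-KD cells (-0.39 ± 0.08, adjusted p = 0.00381) and in SCR cells (-0.37 ± 0.08, adjusted p = 0.00646). The fall in HSF1-KD cells had an adjusted p of 0.0693 by the methods' t-test. In SSBP1-KD cells HS and Cont differed by 0.02 ± 0.08, given without a test. Cxcl5 averaged 7.87 and 7.85 in these groups, just under the median of the mean signals (7.90), and differences between dim signals are compressed. Whether that masked a heat difference was not tested.

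Cxcl1 (probe set 10523151), a neutrophil chemokine gene on chromosome 5 with 4 coding genes between it and Cxcl5, was also lowest in SSBP1-KD HS cells, by a smaller margin. Its signals were 9.84, 9.68 and 9.68 in SSBP1-KD HS cells, 10.41, 9.94 and 9.86 in SSBP1-KD Cont cells, 10.37, 10.40 and 10.37 in HSF1-KD HS cells, 10.77, 10.71 and 10.72 in HSF1-KD Cont cells, 10.09, 10.39 and 10.25 in SCR HS cells, and 10.55, 10.48 and 10.60 in SCR Cont cells. The SSBP1-KD HS arrays lay below every other array. They were 1.42-fold below SCR HS (log2 difference -0.51 ± 0.11, adjusted p = 0.00342) and 1.57-fold below HSF1-KD HS (-0.65 ± 0.11, adjusted p = 0.000618).

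In Cont cells the untested Cxcl1 difference between SSBP1-KD and SCR was -0.47 ± 0.11, and -0.64 without SSBP1-KD Cont replicate 1, the array that stood apart. Heat shock lowered Cxcl1 in HSF1-KD cells (-0.35 ± 0.11, adjusted p = 0.0364), a call that was lost whichever of the 6 arrays was left out, with adjusted p between 0.0759 and 0.0920. In SCR cells the difference was -0.30 ± 0.11 (adjusted p = 0.0908), which passed with only the brighter probe sets tested (adjusted p = 0.0474) and with array weights (adjusted p = 0.0101).

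Ccl2 (probe set 10379511) and Ccl7 (probe set 10379518), monocyte chemoattractants encoded side by side on chromosome 11, fell with heat shock in HSF1-KD and SCR cells. Ccl2 signals were 12.34, 12.43 and 12.39 in SSBP1-KD HS cells, 12.63, 12.60 and 12.53 in SSBP1-KD Cont cells, 12.48, 12.42 and 12.40 in HSF1-KD HS cells, 12.91, 12.84 and 12.94 in HSF1-KD Cont cells, 12.38, 12.44 and 12.43 in SCR HS cells, and 12.74, 12.71 and 12.65 in SCR Cont cells. The 3 heat-shocked groups overlapped with each other, and the 3 Cont groups did not. Ccl2 fell with heat shock in HSF1-KD cells (-0.46 ± 0.04, adjusted p = 9.06e-06) and in SCR cells (-0.28 ± 0.04, adjusted p = 0.000536), with an untested difference of -0.20 ± 0.04 in SSBP1-KD cells.

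Ccl2 was higher in HSF1-KD Cont than in SCR Cont cells (0.20 ± 0.04, adjusted p = 0.00705), with an adjusted p of 0.0669 in the fit of the compared arrays alone and 0.0756 by the methods' t-test. After heat shock it differed by 0.01 between HSF1-KD and SCR cells (adjusted p = 0.905). SSBP1-KD HS cells differed from SCR HS cells by -0.03, with a 95% confidence interval of -0.13 to 0.06 (adjusted p = 0.705).

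Ccl7 signals were 10.04, 10.05 and 10.12 in SSBP1-KD HS cells, 10.58, 10.35 and 10.47 in SSBP1-KD Cont cells, 10.43, 10.66 and 10.46 in HSF1-KD HS cells, 10.90, 11.03 and 10.95 in HSF1-KD Cont cells, 10.30, 10.34 and 10.24 in SCR HS cells, and 10.73, 10.64 and 10.70 in SCR Cont cells. SSBP1-KD HS cells were lowest and HSF1-KD Cont cells highest, each without overlap. Ccl7 fell with heat shock in HSF1-KD cells (-0.45 ± 0.07, adjusted p = 0.000334) and in SCR cells (-0.39 ± 0.07, adjusted p = 0.000919). The first of these had an adjusted p of 0.0526 by the methods' t-test. In SSBP1-KD cells the untested difference was -0.40 ± 0.07.

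Ccl7 differed in direction between the knockdowns. It was higher in HSF1-KD than in SCR cells in Cont (0.28 ± 0.07, adjusted p = 0.0106) and in HS (0.22 ± 0.07, adjusted p = 0.0317), lower in SSBP1-KD HS than in SCR HS cells (-0.23 ± 0.07, adjusted p = 0.0240), and lower in SSBP1-KD HS than in HSF1-KD HS cells (-0.45 ± 0.07, adjusted p = 0.000192). The 3 calls against SCR were each lost under some settings. The Cont call was lost without HSF1-KD Cont replicate 2 (0.24, adjusted p = 0.0539) and by the methods' t-test (adjusted p = 0.0516). The HS call of HSF1-KD was lost without HSF1-KD HS replicate 2 (0.15, adjusted p = 0.162), without SCR HS replicate 1, 2 or 3 (0.20 to 0.25, adjusted p 0.0510 to 0.120) and with array medians made equal (adjusted p = 0.0503), with a replicate block (0.0518), with the compared arrays alone (0.0938) and by the methods' t-test (0.172). The SSBP1-KD call was lost without SSBP1-KD HS replicate 1 or 2 or SCR HS replicate 1 or 2 (-0.22 to -0.20, adjusted p 0.0580 to 0.0911).

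Csf1 (probe set 10501164, chromosome 3), the growth factor of macrophages and their precursors, was below SCR in both knockdowns. Its signals were 11.95, 12.05 and 11.98 in SSBP1-KD HS cells, 11.93, 11.95 and 11.98 in SSBP1-KD Cont cells, 11.69, 11.67 and 11.69 in HSF1-KD HS cells, 11.97, 11.95 and 11.96 in HSF1-KD Cont cells, 12.25, 12.21 and 12.26 in SCR HS cells, and 12.35, 12.34 and 12.20 in SCR Cont cells. All 6 SCR arrays lay above the other 12, and the HSF1-KD HS arrays were lowest. Csf1 fell in HSF1-KD against SCR cells in HS (1.47-fold lower, log2 difference -0.56 ± 0.04, adjusted p = 6.35e-07) and in Cont (1.26-fold lower, -0.34 ± 0.04, adjusted p = 0.000102). It also fell in SSBP1-KD HS against SCR HS cells (1.18-fold lower, -0.24 ± 0.04, adjusted p = 0.000778), and the untested Cont difference was -0.34 ± 0.04.

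SSBP1-KD HS cells exceeded HSF1-KD HS cells in Csf1 by 0.31 ± 0.04 (adjusted p = 0.000106). Heat shock lowered Csf1 in HSF1-KD cells (-0.28 ± 0.04, adjusted p = 0.000479), and in SCR cells the difference was -0.05 ± 0.04 (adjusted p = 0.509). The difference between these heat responses, -0.22 ± 0.06, did not pass the threshold (adjusted p = 0.259).

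**Figure D2:**
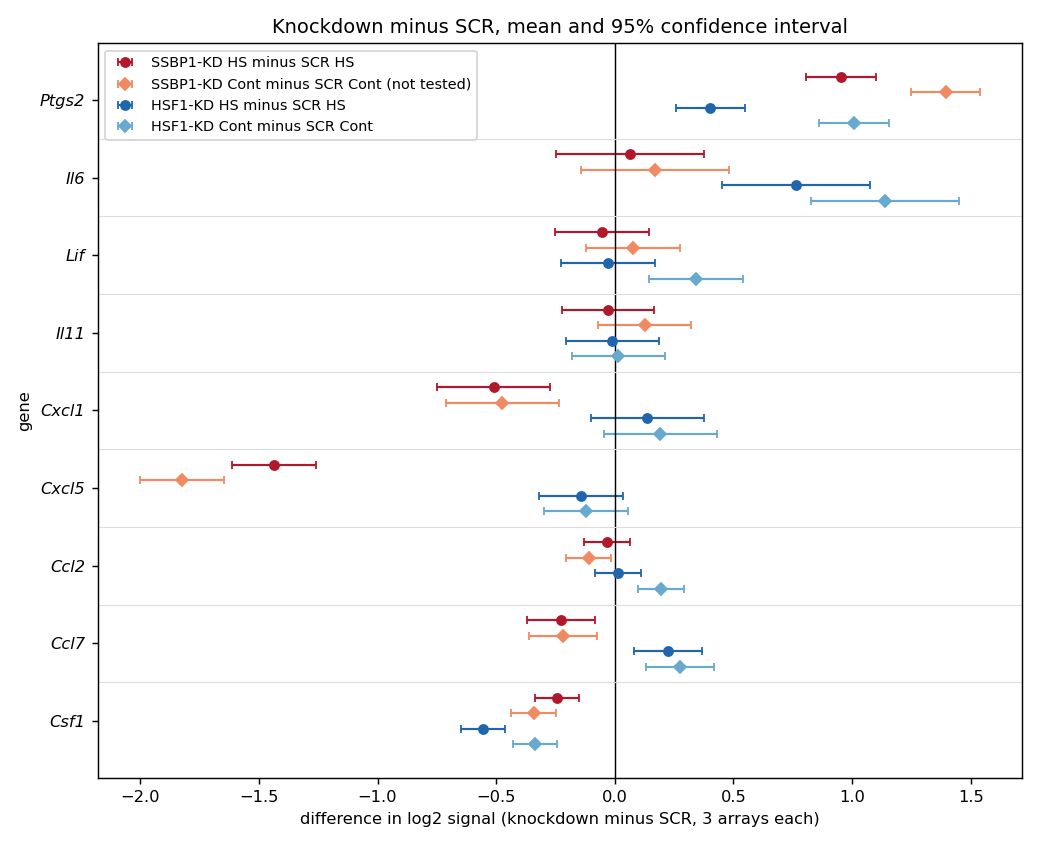
Difference in log2 signal between knockdown and SCR cells for the 9 measured genes, with 95% confidence intervals from limma. Red and orange show SSBP1-KD in HS and in Cont, and dark and light blue show HSF1-KD in HS and in Cont. The Cont difference of SSBP1-KD carries no test because it chose the set. Ptgs2 is above 0 in all 4, Csf1 is below 0 in all 4, and Cxcl5 is far below 0 for SSBP1-KD.

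Counted over the genes, SSBP1-KD HS against SCR HS had 1 of 9 higher (Ptgs2) and 4 of 9 lower (Cxcl5, Cxcl1, Csf1 and Ccl7), where 14.3% of all 19938 symbols were called higher and 14.4% lower. The median difference of the 9 was -0.05 and that of all symbols was 0.03. The median absolute difference was 0.23 against 0.11. In Cont, where SSBP1-KD arrays served the rule, 1 of 9 genes was higher by 1.5-fold or more (background 0.818%) and 1 of 9 lower by as much (background 2.34%), and nothing is read from these counts.

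HSF1-KD Cont against SCR Cont had 5 of 9 genes higher (Il6, Ptgs2, Lif, Ccl7 and Ccl2) and Csf1 lower. The backgrounds were 10.9% higher and 10.1% lower. The Ptgs2 call uses the SCR Cont arrays, which also entered the contrast that chose Ptgs2, so it is not independent of that choice. HSF1-KD HS against SCR HS had 3 of 9 higher (Il6, Ptgs2 and Ccl7) and Csf1 lower, against 13.1% and 10.7%. Median differences of the genes were 0.20 in Cont and 0.01 in HS, beside 0.03 for all symbols in each. The methods' t-test left 2 of the 6 Cont calls, those of Ptgs2 and Csf1.

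Set directly against HSF1-KD HS, SSBP1-KD HS cells were higher in 2 of 9 genes (Ptgs2 and Csf1, background 11.6%) and lower in 4 of 9 (Cxcl5, Il6, Cxcl1 and Ccl7, background 14.1%). In Cont the untested SSBP1-KD minus HSF1-KD differences were 0.38 for Ptgs2, -0.97 for Il6, -1.70 for Cxcl5, -0.67 for Cxcl1, -0.49 for Ccl7, -0.31 for Ccl2, -0.27 for Lif, 0.11 for Il11 and -0.01 for Csf1.

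Heat shock in HSF1-KD cells lowered 5 of 9 genes (Ccl2, Ccl7, Cxcl5, Cxcl1 and Csf1) and raised none of them, against backgrounds of 10.8% lower and 10.6% higher. In SCR cells it lowered 3 of 9 (Ccl7, Cxcl5 and Ccl2) and raised Ptgs2, against 8.34% and 7.63%. Among the 9, the difference in heat response between HSF1-KD and SCR cells passed the threshold for Ptgs2 alone. It was negative there, and 0.336% of all symbols were called in that direction. The SCR Cont arrays also entered the contrast that chose Ptgs2. Neither this call nor the Ptgs2 rise in SCR cells is independent of that choice. The heat response call was lost by the methods' t-test (adjusted p = 0.102). The unadjusted confidence intervals of Lif (-0.65 to -0.09), Ccl2 (-0.32 to -0.05) and Csf1 (-0.35 to -0.09) were also wholly negative. For these genes a difference is not excluded. The comparisons counted here share arrays, so their counts are not independent. Of the 31 calls over the 7 comparisons, 9 also reached a 1.5-fold difference.

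**Figure D3:**
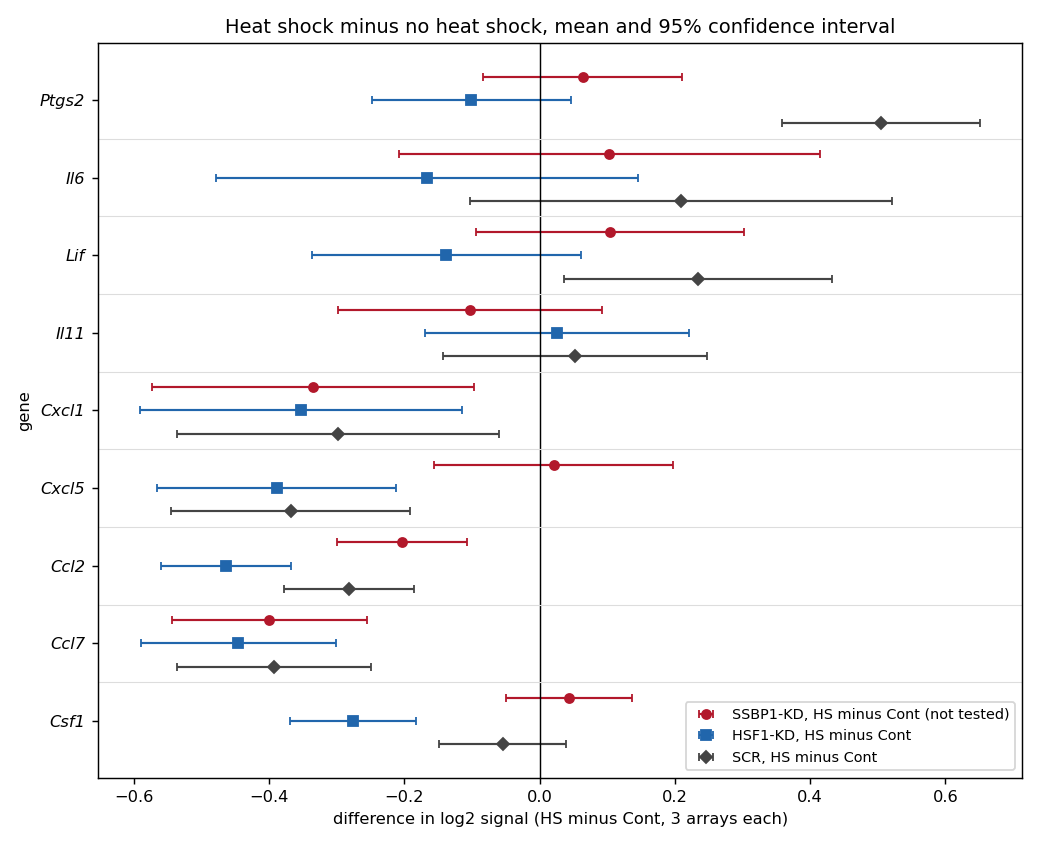
Difference in log2 signal between heat-shocked and Cont cells for the 9 measured genes in SSBP1-KD, HSF1-KD and SCR cells, with 95% confidence intervals from limma. The SSBP1-KD differences carry no test, and the intervals are not adjusted for the number of genes. The interval of Ptgs2 lies above 0 in SCR cells and includes 0 in the others, and those of Cxcl1, Ccl2 and Ccl7 lie below 0 in all 3. For Cxcl1 the SSBP1-KD difference of -0.34 is -0.17 without SSBP1-KD Cont replicate 1.

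The other genes of these pathways were taken from lists of pathway members, written with earlier results of these data known. In SSBP1-KD against SCR cells, over all symbols, 14.3% were called higher and 14.4% lower in HS, and 14.6% higher and 16.5% lower in Cont, and the list counts below stand against these shares. Among 18 measured genes of prostaglandin synthesis and signalling besides Ptgs2, 2 were higher and 2 lower in HS, and as many in Cont, with medians of 0.02 in HS and 0.03 in Cont beside 0.03 and 0.05 for all symbols. Ptgis, the prostacyclin synthase that acts downstream of Ptgs2, was lower in SSBP1-KD cells (-0.42 ± 0.06 in HS, adjusted p = 6.19e-05, and -0.51 ± 0.06 in Cont, adjusted p = 1.20e-05). Abcc4, an exporter of prostaglandins, was higher (0.45 ± 0.06, adjusted p = 6.26e-05, and 0.27 ± 0.06, adjusted p = 0.00303). Ptges3, a prostaglandin E synthase also known as the p23 co-chaperone, was lower in HS (-0.25, adjusted p = 0.00163) and differed by -0.06 in Cont (adjusted p = 0.418). Slco2a1, the prostaglandin uptake transporter, was lower in Cont (-0.24, adjusted p = 0.000414) and differed by -0.06 in HS (adjusted p = 0.328). In HSF1-KD against SCR cells Ptges3 was lower by -0.68 in HS (adjusted p = 2.83e-07) and -0.52 in Cont (adjusted p = 5.82e-06). Abcc4 was higher there by 0.29 in HS (adjusted p = 0.00256) and 0.29 in Cont (adjusted p = 0.00283). Ptgis was lower by -0.31 in HS (adjusted p = 0.00106) and differed by -0.10 in Cont (adjusted p = 0.244). Slco2a1 differed by 0.05 in HS (adjusted p = 0.462) and 0.03 in Cont (adjusted p = 0.715).

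The list of receptors of the cytokines held 12 measured genes. They included the ligand Il33 and the receptor of oncostatin M, a cytokine outside the set. Of these 12, SSBP1-KD cells had 1 higher and 4 lower in HS. In Cont they had 2 higher (1 without SSBP1-KD Cont replicate 1) and 4 lower. Il6st, the gene of gp130 itself, was lower by -0.41 in HS (adjusted p = 3.79e-05) and -0.42 in Cont (adjusted p = 2.89e-05). Lifr, the LIF receptor, was lower by -1.05 ± 0.08 in HS (adjusted p = 5.56e-07) and -1.16 ± 0.08 in Cont (adjusted p = 2.38e-07). Osmr, the oncostatin M receptor, was lower by -0.94 ± 0.07 (adjusted p = 4.40e-07) and -1.0 ± 0.07 (adjusted p = 2.46e-07). Il33, the ligand of the Il1rl1 receptor, was lower by -0.42 (adjusted p = 0.00102) and -0.45 (adjusted p = 0.000480). Il6ra, the IL-6 receptor alpha chain, was higher by 0.57 ± 0.05 (adjusted p = 2.27e-06) and 0.39 ± 0.05 (adjusted p = 6.13e-05). The Lifr, Osmr and Il6st falls were seen in HSF1-KD Cont cells too, at -0.44 (adjusted p = 0.00118), -0.40 (adjusted p = 0.000821) and -0.29 (adjusted p = 0.000995). In those cells Il6ra differed by 0.05 (adjusted p = 0.623) and Il33 by 0.12 (adjusted p = 0.343). In HSF1-KD HS against SCR HS cells Lifr was lower by -0.64 (adjusted p = 4.36e-05) and Osmr by -0.55 (adjusted p = 4.80e-05). Il33 was higher in that comparison by 0.31 (adjusted p = 0.0103), and Il6ra differed by 0.06 (adjusted p = 0.494).

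Of 13 STAT3 and gp130 targets, 7 were lower and 2 higher in SSBP1-KD cells in HS and likewise in Cont (1 higher in Cont without SSBP1-KD Cont replicate 1), with medians of -0.31 and -0.26. Socs3, the feedback inhibitor of gp130 signalling, was lower by -0.87 ± 0.08 in HS (adjusted p = 1.82e-06) and -0.32 ± 0.08 in Cont (adjusted p = 0.00593). Cebpd, a C/EBP transcription factor, was lower by -0.54 ± 0.07 (adjusted p = 7.14e-05) and -0.92 ± 0.07 (adjusted p = 7.01e-07). Bcl3, an IkB family protein also on the NF-kB list, and the kinase Pim1 were lower by -0.56 (adjusted p = 4.91e-06) and -0.56 (adjusted p = 7.70e-06) in HS. In HSF1-KD HS against SCR HS cells Socs3 differed by -0.57 (adjusted p = 8.04e-05) and Cebpd by -0.24 (adjusted p = 0.0306). Bcl3 differed there by -0.32 (adjusted p = 0.000674) and Pim1 by -0.45 (adjusted p = 7.12e-05). In HSF1-KD Cont against SCR Cont cells Socs3 differed by -0.23 (adjusted p = 0.0526) and Cebpd by -0.54 (adjusted p = 0.000135). There Bcl3 differed by -0.26 (adjusted p = 0.00426) and Pim1 by -0.35 (adjusted p = 0.000637). Heat shock in SCR cells raised 6 of the 13 and lowered 2, where 7.63% of all symbols were called higher and 8.34% lower, with Socs3 at 0.72 (adjusted p = 1.36e-05) and Cebpd at -0.47 (adjusted p = 0.000421).

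Of 24 measured NF-kB pathway genes and feedback targets, 6 were higher and 6 lower in SSBP1-KD HS cells, and 10 higher and 6 lower in SSBP1-KD Cont cells. Medians were 0.05 in HS and 0.09 in Cont, beside 0.03 and 0.05 for all symbols. The genes named next are those with the largest differences among the called, and each was lower, unlike the list as a whole. The acute-phase genes Saa3 and Lcn2 were lower by -1.73 ± 0.16 (adjusted p = 3.92e-06) and -1.13 ± 0.10 (adjusted p = 2.02e-06) in HS, and by -1.48 (adjusted p = 1.41e-05) and -1.24 (adjusted p = 7.73e-07) in Cont. The adhesion molecule Vcam1 was lower by -0.62 (adjusted p = 3.67e-06) and -0.49 (adjusted p = 2.86e-05), and the inducible nuclear IkB protein Nfkbiz by -0.62 (adjusted p = 1.91e-06) and -0.19 (adjusted p = 0.0168). In HSF1-KD against SCR cells Vcam1 was lower by -0.68 in HS (adjusted p = 1.60e-06) and -0.47 in Cont (adjusted p = 7.31e-05). Nfkbiz differed there by -0.38 in HS (adjusted p = 0.000147) and 0.07 in Cont (adjusted p = 0.480). Lcn2 was higher there by 0.32 in HS (adjusted p = 0.0368) and 0.33 in Cont (adjusted p = 0.0355). Saa3 differed by -0.18 in HS (adjusted p = 0.585) and 0.14 in Cont (adjusted p = 0.644).

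Of 30 other cytokines and chemokines, 7 were higher and 3 lower in SSBP1-KD HS cells. The genes named below are those with the largest differences among the called, and most of them were lower, unlike the HS counts. In Cont cells 7 were higher and 4 lower, and without SSBP1-KD Cont replicate 1 these were 4 higher and 5 lower. Cxcl12, a stromal chemokine that retains blood progenitors in marrow, was lower by -0.76 ± 0.07 in HS (adjusted p = 3.19e-06) and -1.10 ± 0.07 in Cont (adjusted p = 1.59e-07). Cxcl10, an interferon-induced chemokine, and Cx3cl1 were lower by -0.44 (adjusted p = 0.000706) and -0.48 (adjusted p = 0.000148) in HS. Ccl20, which attracts CCR6-bearing lymphocytes, was higher by 0.58 ± 0.08 (adjusted p = 7.68e-05) in HS and 0.74 ± 0.08 (adjusted p = 8.65e-06) in Cont. In HSF1-KD Cont cells 11 of the 30 were higher and 2 lower than in SCR Cont cells, where 10.9% of all symbols were called higher and 10.1% lower, with Ccl20 at 0.74 (adjusted p = 1.54e-05) and Cxcl12 at -1.20 (adjusted p = 1.22e-07). Cxcl10 and Cx3cl1 were higher there, by 0.36 (adjusted p = 0.00430) and 0.24 (adjusted p = 0.0275).

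Of 13 factors of cytokine mRNA decay and translation, 3 were higher and 5 lower in SSBP1-KD HS cells, and 4 higher and 4 lower in SSBP1-KD Cont cells. Zfp36l1, which promotes decay of AU-rich mRNAs, was lower by -0.64 ± 0.07 in HS (adjusted p = 1.22e-05) and -0.25 ± 0.07 in Cont (adjusted p = 0.0170). Its relative Zfp36, tristetraprolin, was lower by -0.37 in HS (adjusted p = 0.00173) and differed by -0.05 in Cont (adjusted p = 0.679). Tia1, a translational silencer of cytokine mRNAs, was lower by -0.45 (adjusted p = 0.000386) and -0.58 (adjusted p = 4.38e-05), and Zc3h12c, of the Regnase family, was higher by 0.36 (adjusted p = 2.55e-05) and 0.48 (adjusted p = 2.12e-06). In HSF1-KD Cont cells 1 of the 13 was higher and 6 were lower, beside the same 10.9% and 10.1%. Zfp36 was at -0.38 there (adjusted p = 0.00221) and Zfp36l1 at -0.58 (adjusted p = 5.49e-05). Tia1 was also lower there, by -0.50 (adjusted p = 0.000259), and Zc3h12c was higher by 0.14 (adjusted p = 0.0414). In HSF1-KD HS against SCR HS cells Zfp36l1 was lower by -0.72 (adjusted p = 4.39e-06) and Tia1 by -0.28 (adjusted p = 0.0156). Zfp36 was lower in that comparison by -0.40 (adjusted p = 0.00132), and Zc3h12c differed by 0.06 (adjusted p = 0.471).

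**Figure D4:**
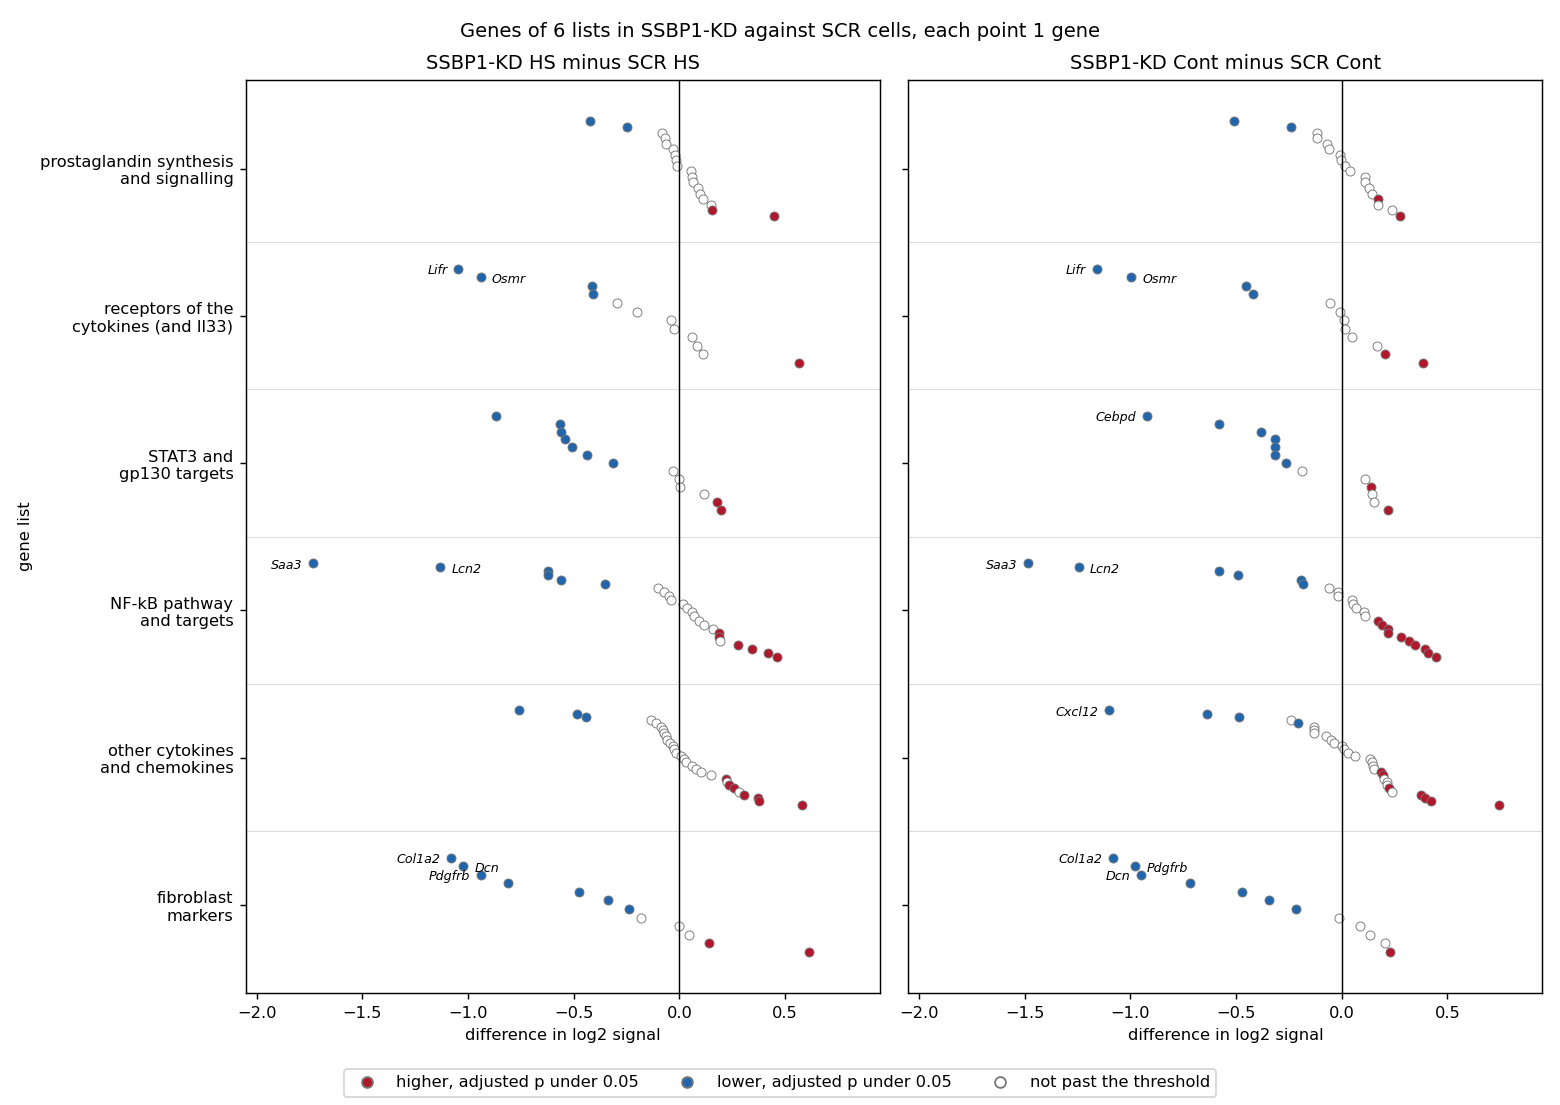
Difference in log2 signal between SSBP1-KD and SCR cells in HS and in Cont for the genes of 6 lists, each point 1 gene. Red and blue points passed an adjusted p of 0.05, and named points are genes named by rule that differ by more than 0.9. Saa3, Lcn2, Lifr, Osmr, Col1a2, Pdgfrb and Dcn lie below -0.9 in both panels, and Cxcl12 and Cebpd do so in Cont.

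Of 12 fibroblast markers, 7 were lower and 2 higher in SSBP1-KD HS against SCR HS cells, 7 lower and 1 higher in SSBP1-KD Cont, and 7 lower and 2 higher in HSF1-KD Cont against SCR Cont cells. Of all symbols 14.4% were lower and 14.3% higher in SSBP1-KD HS, and 16.5% lower and 14.6% higher in SSBP1-KD Cont. In HSF1-KD Cont these shares were 10.1% and 10.9%. The mean log2 signal of the list lay between 10.37 and 10.41 in SSBP1-KD HS, 10.35 and 10.47 in SSBP1-KD Cont, 10.50 and 10.53 in HSF1-KD HS, 10.61 and 10.64 in HSF1-KD Cont, 10.70 and 10.79 in SCR HS, and 10.73 and 10.78 in SCR Cont cells. In SSBP1-KD HS against SCR HS cells the collagen gene Col1a2 was lower by -1.08 (adjusted p = 4.04e-08). The proteoglycan gene Dcn was lower there by -1.02 (adjusted p = 1.81e-07) and the receptor gene Pdgfrb by -0.94 (adjusted p = 1.37e-07). These genes were named for the size of their differences, and the 2 higher markers are not named. In HSF1-KD HS against SCR HS cells Col1a2 was lower by -0.91 (adjusted p = 3.24e-08). Dcn was lower in that comparison by -0.72 (adjusted p = 3.39e-06) and Pdgfrb by -0.55 (adjusted p = 1.18e-05). The part of these changes in the Ptgs2 and cytokine differences was not tested, and in bulk RNA fewer cells of a type and less RNA per cell cannot be told apart.

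Of 12 macrophage and leukocyte markers, 2 were higher in SSBP1-KD HS cells, 3 in SSBP1-KD Cont cells (1 without SSBP1-KD Cont replicate 1) and 4 in HSF1-KD Cont cells, with none lower. In SSBP1-KD HS this share is close to the 14.3% of all symbols called higher. Of all symbols 14.6% were called higher in SSBP1-KD Cont, and 10.9% were called higher and 10.1% lower in HSF1-KD Cont. The list mean lay between 7.22 and 7.29 in SSBP1-KD HS, 7.17 and 7.33 in SSBP1-KD Cont, 7.23 and 7.32 in HSF1-KD HS, 7.21 and 7.30 in HSF1-KD Cont, 7.14 and 7.20 in SCR HS, and 7.04 and 7.12 in SCR Cont cells. Cd68, a lysosomal protein abundant in macrophages, was higher by 0.45 in HS (adjusted p = 0.00156), and Itgam by 0.24 (adjusted p = 0.0387), while the pan-leukocyte gene Ptprc differed by 0.06 (adjusted p = 0.743). Endothelial markers had 1 of 6 higher in HS (Kdr), again close to that share, and epithelial markers 2 of 6 lower (Cdh1 and Epcam) where 14.4% of all symbols were lower. Their part in the results was not tested.

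Ptgs2 was also set beside all other genes for likeness of pattern, as a description with no p. Among 444 symbols whose group means spanned at least 1 log2 unit, Pearson's r with Ptgs2 over the 18 arrays was highest for Ereg (0.96), a growth factor of the EGF family. Next came Nmnat2 (0.93), an NAD-synthesizing enzyme, Serpinb2 (0.92), an inhibitor of plasminogen activators, Map2k3os (0.92) and Havcr2 (0.92), the receptor TIM-3. The arrays fall into 6 groups, so these values carry the differences between groups. Ereg averaged 9.12 in SSBP1-KD HS, 9.20 in SSBP1-KD Cont, 8.86 in HSF1-KD HS, 8.85 in HSF1-KD Cont, 8.40 in SCR HS and 8.16 in SCR Cont cells.

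**Figure D5:**
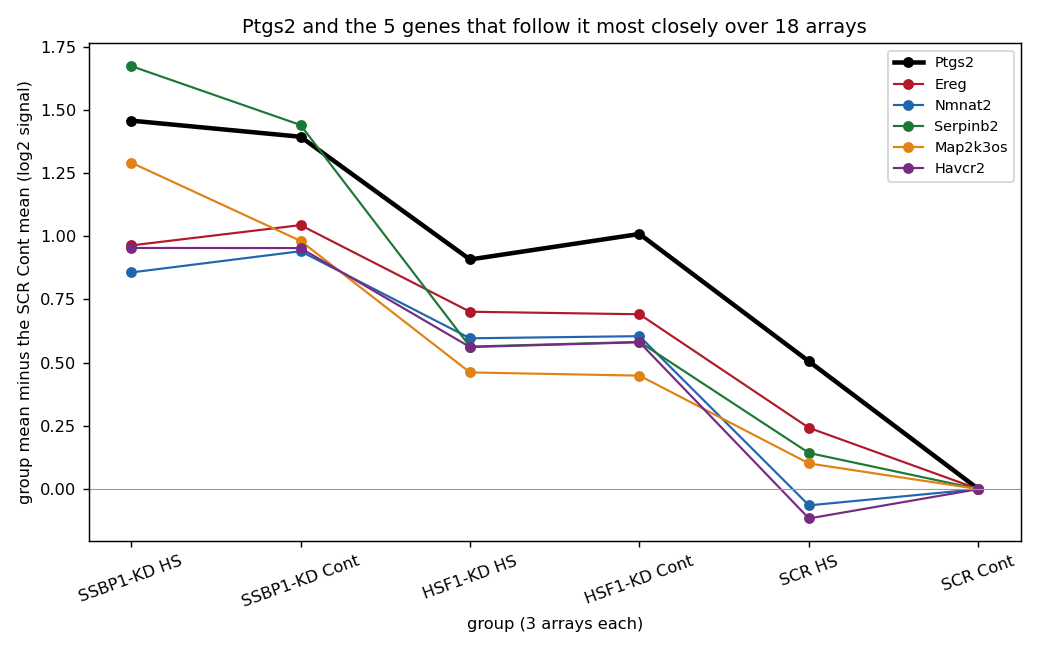
Group mean of the log2 signal minus the SCR Cont mean for Ptgs2 and the 5 genes most like it, in each of the 6 groups of 3 arrays. Lines join the means of 1 gene. All 6 genes are highest in SSBP1-KD cells, with HSF1-KD cells next, and Nmnat2 and Havcr2 lie slightly below their SCR Cont mean in SCR HS cells.

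Among the measured genes themselves, Pearson's r with Ptgs2 over the 18 arrays ran between -0.81 for Cxcl5 and 0.29 for Lif. Among the 6 pairs of chemokine genes r was 0.88 for Cxcl1 and Ccl7, 0.87 for Ccl2 and Ccl7, 0.82 for Cxcl1 and Cxcl5, 0.72 for Cxcl1 and Ccl2, 0.64 for Cxcl5 and Ccl7 and 0.46 for Cxcl5 and Ccl2. These values are descriptions, since the same arrays and groups enter all of them.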

How the data were processed

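RNA of MEFs (200 ng a sample) was hybridized to 18 Affymetrix Mouse Gene ST arrays. The submitters' processing notes name RMA and Partek 6.5, and the values the authors deposited are log2 signals per probe set, already background-corrected and normalized between arrays if RMA was run as usual. RMA compresses differences between dim signals. With 3 arrays per group, the number of arrays limits the precision. Of the 35557 probe sets, 21789 carry 1 gene symbol in the platform annotation, 1621 several and 12147 none, and 21698 of the single symbols were matched through RefSeq.

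Each gene was read from its brightest probe set with 1 symbol. A linear model with 1 mean per group was fitted to all probe sets in R 4.3.3 with limma 3.58.1 (lmFit, eBayes, 12 residual degrees of freedom), with Benjamini-Hochberg adjustment over all of them, and a difference was called at an adjusted p under 0.05. This was tested on simulated data. The study's stated Student test was run as an alternative, the methods' t-test. The other alternatives were array scaling, probe filters, weights, a replicate block and leaving out each array. The members and lists were chosen with earlier results of these data known.

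The genes named are every member, up to 4 genes per list with the largest difference among those called in SSBP1-KD against SCR cells, the 5 genes most like Ptgs2, and Ssbp1. Ptprc and Il6st were named after their values were seen. Promoter windows came from RefSeq (GRCm38.p6), and the build behind the array annotation is not given in the sources used here. Replicate numbers were not treated as pairs.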

Additional observations from a re-analysis of the deposited data

Results flagged for a closer look

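The heat response of Ptgs2 differed between HSF1-KD and SCR cells by a test of the difference itself (log2 difference -0.606 ± 0.097 SE, HSF1-KD minus SCR, adjusted p = 0.00876 by limma). Ptgs2 averaged 11.11 in HSF1-KD HS and 11.21 in HSF1-KD Cont cells, against 10.71 in SCR HS and 10.20 in SCR Cont cells. HSF1-KD cells thus lay above SCR cells in both conditions, and the gap was wider in Cont. Over the 23 alternatives the difference stayed between -0.66 and -0.51, and the adjusted p lay between 0.00219 and 0.102, the highest by the methods' t-test. The SCR Cont arrays also entered the contrast that chose Ptgs2, so this test is not independent of that choice. Without SCR Cont replicate 3, the array with the lowest Ptgs2 signal, it was -0.51 (adjusted p = 0.00709).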

How the results depend on the processing

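No called difference turned in sign under any alternative, 7 of the 31 calls passed in every setting, and the others were lost in at least 1 setting, most often when a 1.5-fold difference was required. With a 1.5-fold difference required, the members called numbered 0 for heat shock in HSF1-KD cells, 0 for heat shock in SCR cells, 2 for HSF1-KD against SCR in Cont, 1 in HS, 2 for SSBP1-KD against SCR in HS and 3 for SSBP1-KD against HSF1-KD in HS. By the methods' t-test they numbered 3 for heat shock in HSF1-KD cells, 2 for HSF1-KD against SCR in Cont and 0 for the heat response. Under the 1.5-fold requirement a call was lost by definition wherever the difference was smaller than that. The cause of the other losses was not tested. Same-numbered arrays of different groups did not deviate together (6 of 45 correlations above 0.1, range -0.28 to 0.17, and 6 of 18 arrays closest to their own number), so a replicate block was only an alternative. With it 4, 5, 6, 3, 5, 6 and 1 members were called for heat shock in SCR, heat shock in HSF1-KD, HSF1-KD against SCR in Cont, the same in HS, SSBP1-KD against SCR in HS, SSBP1-KD against HSF1-KD in HS and the heat response.

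Of 32 differences not called, 13 turned in sign near 0 in some setting and 1, that of Cxcl1 with heat shock in SCR cells, was called in some. For HSF1-KD against SCR in Cont, Il11 was -0.00906 with equal array medians, -0.0220 with quantile normalization and -0.00645 with array weights. For HSF1-KD against SCR in HS, Ccl2 was -0.00228 with equal medians and Lif was 0.0297 with array weights. For SSBP1-KD against HSF1-KD in HS, Lif was 0.00173 with equal medians and 0.00339 with quantile normalization, and Il11 was 0.00839, 0.000628 and, with array weights, 0.00316. With 1 array left out at a time, the ranges of the differences that turned were for SSBP1-KD against SCR in HS Lif -0.0974 to 0.0091 and Il11 -0.0999 to 0.0246, for SSBP1-KD against HSF1-KD in HS Lif -0.122 to 0.0376 and Il11 -0.0892 to 0.0382, for heat shock in HSF1-KD Il11 -0.0308 to 0.0568, for HSF1-KD against SCR in HS Lif -0.0787 to 0.0686, Ccl2 -0.0105 to 0.0292 and Il11 -0.0676 to 0.0199, for heat response HSF1-KD minus SCR Cxcl1 -0.131 to 0.0165, Cxcl5 -0.0737 to 0.0413 and Il11 -0.102 to 0.0696, for HSF1-KD against SCR in Cont Il11 -0.0803 to 0.0911, for heat shock in SCR Il11 -0.0435 to 0.128. The untested heat difference of Cxcl1 in SSBP1-KD cells was -0.34, and -0.17 without SSBP1-KD Cont replicate 1.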
